A study of Mus musculus with 6 samples.

Results

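The neurotrophin genes Bdnf and Ntf3, the Trk receptor genes Ntrk2 and Ntrk3, and the receptor genes Ngfr and Sort1 were taken by symbol from a table of RNA sequencing counts. These are 6 of its 51912 genes, and all 6 were among the 17517 genes that passed the filter on low counts. The RNA came from the hippocampus of mice of 2 inbred strains, DBA/2 and C57BL/6, with 3 libraries for each strain. The labels give strain and tissue and no treatment, genotype, sex, age or substrain, and they do not say plainly whether a library held 1 animal or a pool. P-values therefore rest on the scatter among the deposited libraries, part of which may be technical.

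Neurotrophins are secreted proteins that support neurons and adjust synapses. They are made as precursors that proteases cut, and the mature proteins dimerise and switch on Trk receptor tyrosine kinases, BDNF through TrkB (Ntrk2) and NT-3 through TrkC (Ntrk3). The uncut precursors bind p75NTR (Ngfr), a receptor with a death domain, together with sortilin (Sort1), which also sorts BDNF precursor inside the cell. In hippocampus, Bdnf is transcribed from several alternative promoters in response to neuronal activity and is needed for lasting synaptic potentiation, while Ntf3 is known from dentate granule cells and area CA2.

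Total counts were 13839366 to 16912153 in the DBA/2 libraries and 13867280 to 20185683 in the C57BL/6 libraries. Markers of hippocampal neurons were present in both strains. The granule cell factor Prox1 had 126 CPM in DBA/2 and 124 CPM in C57BL/6 (CPM, counts brought to a common library total with edgeR's TMM factors). Other granule cell markers differed in either direction. C1ql2 had 23.9 CPM in DBA/2 and 56.5 CPM in C57BL/6, and Dsp had 51.0 CPM in DBA/2 and 43.55 CPM in C57BL/6. A set of 12 markers of neighbouring thalamus and habenula had a summed level of 265 to 346 CPM in DBA/2 and 503 to 717 CPM in C57BL/6, and 8 oligodendrocyte markers one of 4492 to 6053 CPM in DBA/2 and 6640 to 8291 CPM in C57BL/6. C57BL/6 replicates 1 and 3 held Xist at 191 and 347 CPM, before TMM scaling, together with 4 Y-linked genes at 170 and 149. The other 4 libraries had at most 0.71 for Xist and 213 to 250 for the Y-linked genes. Xist marks female RNA and Y-linked genes mark male RNA, so C57BL/6 replicates 1 and 3 appear to hold both. Sex was thus not balanced between the strains, and its part in the strain differences was not tested. Across the whole table, 4000 genes were called, 1593 higher and 2407 lower in DBA/2, at a Benjamini-Hochberg adjusted p under 0.05 in edgeR's quasi-likelihood test.

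Bdnf lies on the plus strand of chromosome 2 (109674700 to 109727007, GRCm38), and its 11 annotated transcripts, all protein coding, start at alternative first exons and share the exon that encodes the protein. Of 7 Bdnf start windows in RefSeq (GRCm38.p6, 250 bases before to 50 after each start), 2 are shown because they belong to the exons best known for activity-dependent transcription. The capitals mark TGACG or its reverse complement CGTCA, the core of the site bound by CREB.

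Bdnf window 1, chr2:109674450-109674749, plus strand, at the start of exon I: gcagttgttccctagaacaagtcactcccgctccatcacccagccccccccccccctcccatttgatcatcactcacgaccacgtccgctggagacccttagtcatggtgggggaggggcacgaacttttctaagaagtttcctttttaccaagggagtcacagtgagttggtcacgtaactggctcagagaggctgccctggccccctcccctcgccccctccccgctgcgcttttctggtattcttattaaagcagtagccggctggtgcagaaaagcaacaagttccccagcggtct
Bdnf window 3, chr2:109692186-109692485, plus strand, at the start of exon IV: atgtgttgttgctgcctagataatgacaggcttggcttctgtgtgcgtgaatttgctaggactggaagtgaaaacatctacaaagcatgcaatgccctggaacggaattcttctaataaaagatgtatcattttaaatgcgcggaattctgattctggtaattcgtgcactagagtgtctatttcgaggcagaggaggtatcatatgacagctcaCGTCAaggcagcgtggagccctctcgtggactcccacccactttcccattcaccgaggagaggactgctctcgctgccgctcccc

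The window at exon IV held 1 match, CGTCA at -35 from the start, and the other 6 Bdnf windows held none. Of 32851 windows of this length in RefSeq, 20.8% hold TGACG on either strand and 1.79% hold the full palindrome TGACGTCA, which was in none of the Bdnf windows. A match is a description of the letters only. The deposited counts are per gene and so merge the transcripts of all Bdnf starts.

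Bdnf was lower in DBA/2 by a small margin, and it was the 1 gene of the 6 that passed the test. It had 38.0, 35.2 and 34.3 CPM in the DBA/2 libraries, against 37.5, 44.4 and 44.7 CPM in the C57BL/6 libraries. The groups overlapped, because C57BL/6 replicate 1 was as low as the DBA/2 libraries. The means were 35.9 ± 1.95 CPM in DBA/2 and 42.2 ± 4.07 CPM in C57BL/6 (SD, n = 3 each), from 476 to 648 counts a library in DBA/2 and 609 to 896 in C57BL/6. The log2 fold change of DBA/2 over C57BL/6 was -0.23 ± 0.08 (SE), a level 0.85 times that of C57BL/6 with a 95% interval of 0.76 to 0.95 (edgeR's quasi-likelihood test, Benjamini-Hochberg adjusted p = 0.0259). Against this 1 call in 6, 22.8% of all tested genes were called, 13.7% lower and 9.09% higher in DBA/2. Of all called genes, 18.7% changed by less than Bdnf did.

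The Bdnf call rested on several single libraries. By the same edgeR test, leaving out DBA/2 replicate 2 gave an adjusted p of 0.0706 and leaving out DBA/2 replicate 3 one of 0.0976. Leaving out C57BL/6 replicate 2 gave 0.115 and C57BL/6 replicate 3 gave 0.157, with a log2 fold change of -0.19 to -0.31 over all 6 ways of leaving out 1 library. In the DESeq2 Wald test the adjusted p was 0.102, and without the 2 C57BL/6 libraries that held Xist, which leaves 1 library in C57BL/6, it was 0.067 with a log2 fold change of -0.30. In bulk tissue, fewer cells that make a transcript and less of it per cell cannot be told apart. Of the 12 thalamus and habenula markers 7 were called lower in DBA/2, beside 13.7% of all tested genes. Of the 8 oligodendrocyte markers 1 was called lower. The part of these cells in the Bdnf difference was not tested.

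**Figure D1:**
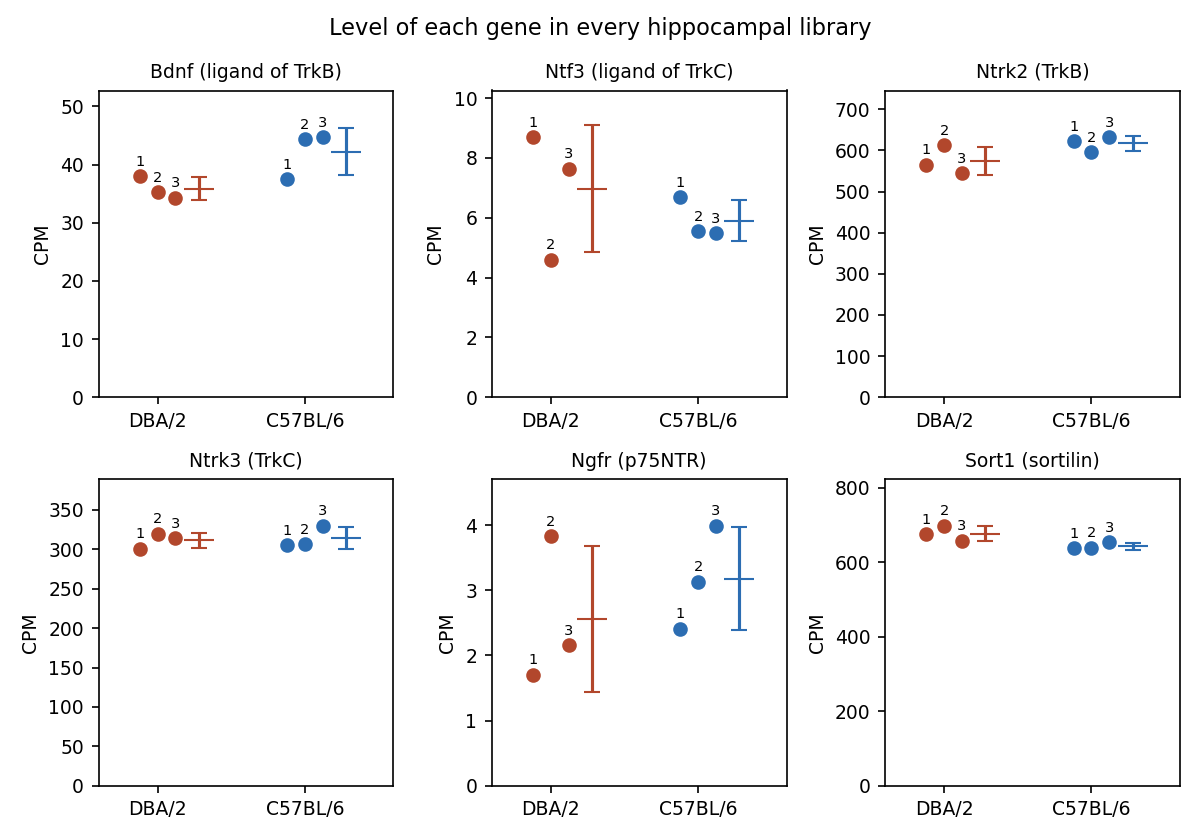
Level in CPM (vertical axis, from 0) of each of the 6 genes in every library, with DBA/2 left of C57BL/6. Numbers beside the points are replicate numbers, and the bars beside them are the mean ± SD of 3 libraries. Bdnf sits at 34.3 to 38.0 CPM in DBA/2 and 37.5 to 44.7 CPM in C57BL/6, and Sort1 is the 1 gene whose strains do not overlap.

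Ntf3, the gene of NT-3, lies on the minus strand of chromosome 6 (126101412 to 126166910). It had 8.69, 4.59 and 7.64 CPM in the DBA/2 libraries, against 6.68, 5.54 and 5.49 CPM in the C57BL/6 libraries. DBA/2 replicate 2 was the lowest of all 6 libraries while the other 2 DBA/2 libraries were the highest, so the strains overlapped. The log2 fold change was 0.24 with a 95% interval of -0.18 to 0.65, and Ntf3 was not called (edgeR's quasi-likelihood test, Benjamini-Hochberg adjusted p = 0.445). Without DBA/2 replicate 2 the log2 fold change was 0.47 with an adjusted p of 0.0443 in the same test, and without DBA/2 replicate 1 it was 0.04 with an adjusted p of 0.928. With 76 to 148 counts a library, the interval still allowed a level up to 1.57-fold that of C57BL/6.

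Among 6 markers of CA2, an area known for Ntf3, 2 rose and 2 fell, and the list for dentate granule cells, 7 genes, had 1 that rose and 2 that fell, beside 9.09% called higher and 13.7% called lower over all tested genes. Summed CA2 markers were 215 to 246 CPM in DBA/2 and 269 to 325 CPM in C57BL/6, a gap smaller than that of 1 of them, the calmodulin-binding gene Pcp4, at 65.0 CPM in DBA/2 and 144 CPM in C57BL/6. The mean log2 CPM of the CA2 markers overlapped, at 4.51 to 4.70 in DBA/2 and 4.63 to 4.797 in C57BL/6. Summed granule cell markers overlapped, at 472 to 529 CPM in DBA/2 and 497 to 523 CPM in C57BL/6, while their mean log2 CPM did not, at 5.49 to 5.66 in DBA/2 and 5.73 to 5.81 in C57BL/6. Their part in the Ntf3 values was not tested.

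Ntrk2, which encodes the BDNF receptor TrkB, spans 327.4 kb of the plus strand of chromosome 13 (58806569 to 59133970). It had 565, 612 and 545 CPM in the DBA/2 libraries, against 623, 596 and 632 CPM in the C57BL/6 libraries. DBA/2 replicate 2 lay among the C57BL/6 libraries, and the other 2 DBA/2 libraries were lower than all of C57BL/6. The means were 574 ± 34.6 CPM in DBA/2 and 617 ± 18.9 CPM in C57BL/6 (SD, n = 3 each), with a log2 fold change of -0.10 and a 95% interval of -0.20 to -0.00 before adjustment. Its p was 0.0439 before adjustment, as 33.3% of all tested genes had one under 0.05. Ntrk2 was not called (edgeR's quasi-likelihood test, Benjamini-Hochberg adjusted p = 0.137). Without DBA/2 replicate 2 its log2 fold change was -0.15 with an adjusted p of 0.02 in the same test.

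Ntrk2 counts mix receptors of different function. Among its 7 protein coding transcripts the annotation gives coding lengths of 1398 to 2463 bases. The long form carries the tyrosine kinase, and the short forms end soon after the membrane and lack it. The truncated form is the main one in astrocytes, so a count of the whole gene does not show the kinase-bearing receptor by itself. Of 10 astrocyte markers 2 rose and 5 fell, beside 22.8% called in either direction over all tested genes, with a median log2 fold change of -0.13. Their mean log2 CPM was lower in DBA/2, at 7.65 to 7.76 in DBA/2 and 7.85 to 7.97 in C57BL/6. Their summed levels, 5162 to 5739 CPM in DBA/2 and 5046 to 5321 CPM in C57BL/6, are mostly the glutamate transporter gene Slc1a2, which rose to 3314 CPM in DBA/2, against 2689 CPM in C57BL/6. Their part in the Ntrk2 values was not tested.

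Ntrk3, which encodes the NT-3 receptor TrkC, spans 562.1 kb of the minus strand of chromosome 7 (78175959 to 78738012). It had 301, 320 and 314 CPM in the DBA/2 libraries, against 305, 307 and 330 CPM in the C57BL/6 libraries. The strains overlapped throughout, with a log2 fold change of -0.01 and a 95% interval of -0.11 to 0.09 (edgeR's quasi-likelihood test, Benjamini-Hochberg adjusted p = 0.899). With library size alone as the scaling the sign turned, to 0.01. The interval, as a fold, runs from 0.93 to 1.06, which makes Ntrk3 with Ntrk2 and Sort1 the most narrowly bounded of the 6 genes.

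Ngfr, which encodes p75NTR, was the scarcest of the 6. The gene lies on the minus strand of chromosome 11 (95568818 to 95587735) and has 1 annotated transcript. It had 29, 65 and 30 counts in the DBA/2 libraries, or 1.70, 3.83 and 2.16 CPM, against 40, 43 and 80 counts in the C57BL/6 libraries, or 2.41, 3.13 and 3.99 CPM. DBA/2 replicate 2 lay well above the other DBA/2 libraries, and the strains overlapped. The means were 2.56 ± 1.12 CPM in DBA/2 and 3.18 ± 0.79 CPM in C57BL/6 (SD, n = 3 each). The log2 fold change was -0.31 with a 95% interval of -0.89 to 0.27, and leaving out 1 library moved it between -0.07 and -0.74 (edgeR's quasi-likelihood test, Benjamini-Hochberg adjusted p = 0.478 with all 6 libraries). The 29 counts of DBA/2 replicate 1 have an exact 95% Poisson interval of 19.4 to 41.7, for counting error only.

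Cholinergic neurons of the septum, which project to the hippocampus, are the best known brain cells with p75NTR. Their markers were low, with Chat, the enzyme of acetylcholine synthesis, at 1.52 CPM in DBA/2 and 2.31 CPM in C57BL/6. The 6 markers of this list summed to 18.4 to 30.9 CPM in DBA/2 and 31.8 to 42.2 CPM in C57BL/6. These sums are mostly the transcription factor gene Zic4, at 16.4 CPM in DBA/2 and 24.8 CPM in C57BL/6. Zic4 was the 1 called lower, beside 13.7% of all tested genes. The mean log2 CPM of the 6 markers overlapped, at -0.144 to 1.609 in DBA/2 and 0.742 to 1.884 in C57BL/6. Their part in the Ngfr values was not tested.

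Sort1, the gene of sortilin, lies on the plus strand of chromosome 3 (108284082 to 108361511) and had the highest level of the 6. It had 676, 698 and 658 CPM in the DBA/2 libraries, against 637, 639 and 654 CPM in the C57BL/6 libraries. All DBA/2 libraries were above all C57BL/6 libraries, as they were for 16.7% of tested genes, and the strains separated in either direction for 36.8%. The means were 677 ± 20.3 CPM in DBA/2 and 643 ± 8.96 CPM in C57BL/6 (SD, n = 3 each). The log2 fold change was 0.07 with a 95% interval of -0.02 to 0.16, and Sort1 was not called (edgeR's quasi-likelihood test, Benjamini-Hochberg adjusted p = 0.252). The interval bounds a strain difference at 1.12-fold.

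Levels of different genes were compared per length, on the deposited FPKM (counts per kilobase of exon, scaled to the library total). Sort1 was highest, at 90.1 ± 3.03 FPKM in DBA/2 and 84.1 ± 1.41 FPKM in C57BL/6 (SD, n = 3 each). Then came Ntrk2 at 41.9 ± 2.67 FPKM in DBA/2 and 44.2 ± 1.42 FPKM in C57BL/6, and Ntrk3 at 10.4 ± 0.34 FPKM in DBA/2 and 10.3 ± 0.49 FPKM in C57BL/6. Bdnf came next, at 5.80 ± 0.32 FPKM in DBA/2 and 6.72 ± 0.66 FPKM in C57BL/6. Ntf3 followed at 4.10 ± 1.24 FPKM in DBA/2 and 3.41 ± 0.38 FPKM in C57BL/6, and Ngfr was last at 0.75 ± 0.33 FPKM in DBA/2 and 0.91 ± 0.23 FPKM in C57BL/6. Within each strain every library of a gene was above every library of the next gene in this order, so no neighbours overlapped. The lengths sum all exons of a gene, 30170 bases for Ntrk3 and 13806 for Ntrk2. With the GENCODE M21 length of Ntrk2, 19292 bases, its level would be 30.0 FPKM in DBA/2 and 31.7 FPKM in C57BL/6, still second.

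**Figure D2:**
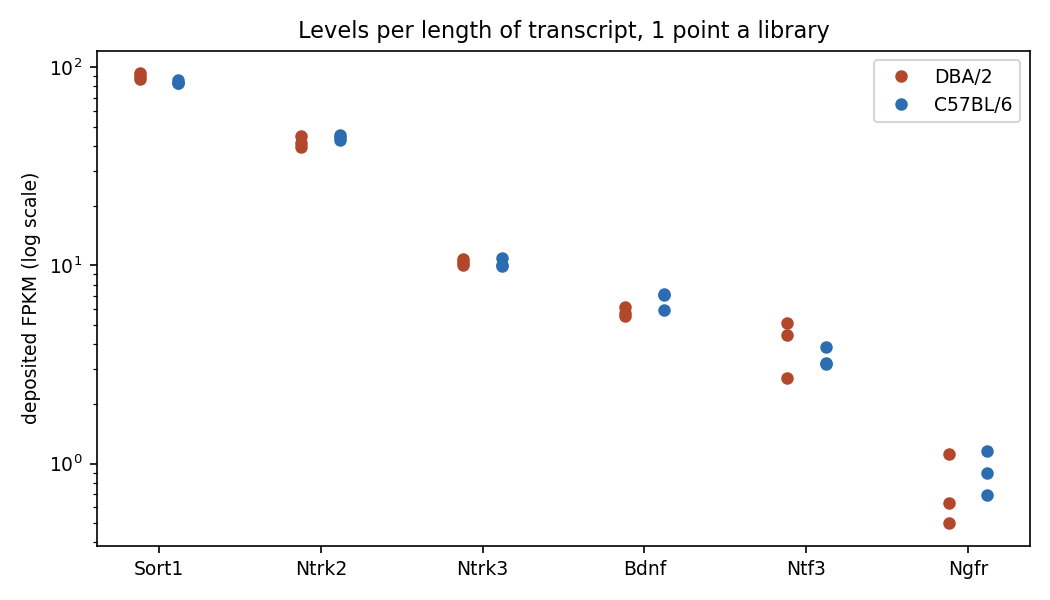
Deposited FPKM (vertical axis, log scale) of the 6 genes, with 1 point a library and DBA/2 left of C57BL/6 within each gene. The order from Sort1 at about 87.1 FPKM over both strains to Ngfr at 0.83 FPKM was the same in the DBA/2 and C57BL/6 libraries.

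Ratios of genes within a library do not depend on the scaling between libraries, and 6 were fixed for ligands, receptors and pairs of receptors. The ratio of Ntrk2 to Ntrk3 on the FPKM scale was 4.11, 4.18 and 3.80 in the DBA/2 libraries, against 4.46, 4.24 and 4.19 in the C57BL/6 libraries. All DBA/2 ratios were lower, the closest by a small margin, and the two-sided exact permutation test gave p = 0.1, the smallest that 3 against 3 libraries allow (0.45 with Benjamini-Hochberg adjustment over the 6 ratios). The ratio of Bdnf to its receptor gene Ntrk2 was 0.15, 0.13 and 0.14 in the DBA/2 libraries, against 0.13, 0.17 and 0.16 in the C57BL/6 libraries. These overlapped, with a difference in log2 ratio of -0.13 and an exact permutation p of 0.3. The ratio of Bdnf to Ntf3 was 1.21, 2.11 and 1.24 in the DBA/2 libraries, against 1.55, 2.21 and 2.25 in the C57BL/6 libraries, and these too overlapped (exact permutation p = 0.2). The other ratios, Ntf3 to Ntrk3, Ngfr to Sort1 and Ngfr to Ntrk2, overlapped as well, with differences in log2 ratio of 0.21, -0.44 and -0.26 and exact permutation p of 0.6, 0.3 and 0.6.

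**Figure D3:**
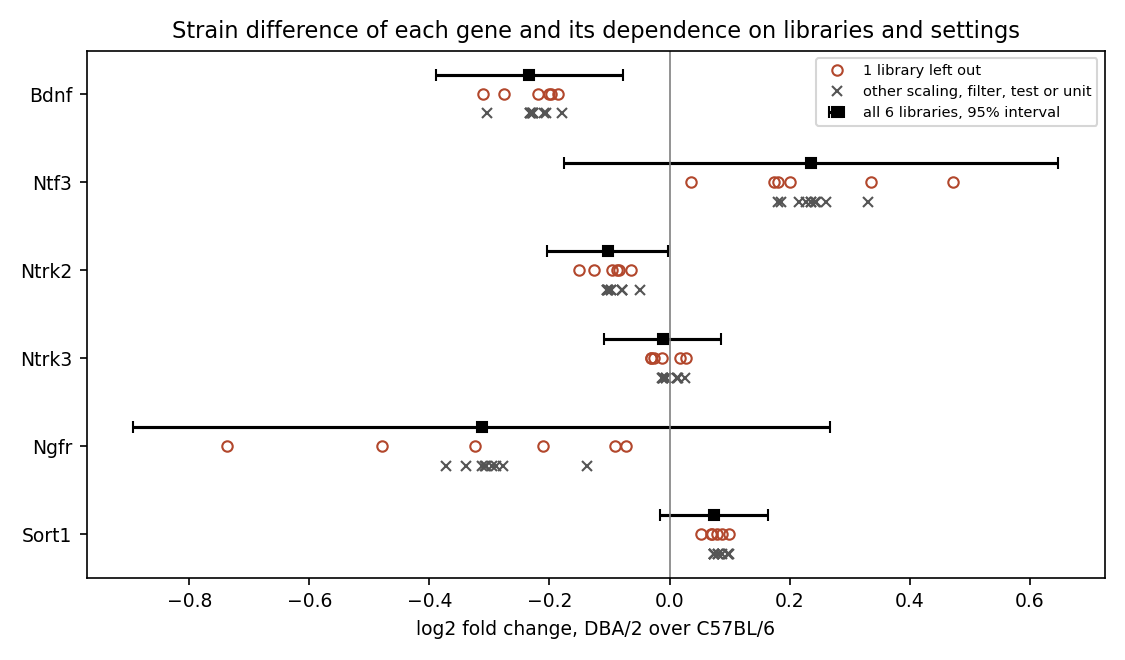
Log2 fold change of DBA/2 over C57BL/6 (horizontal axis) for each gene. Squares are the estimate from all 6 libraries with its 95% interval before adjustment, open circles leave out 1 library each, and crosses are other scalings, filters, tests or units. Bdnf stays between -0.18 and -0.31, while Ngfr runs from -0.07 to -0.74 and Ntf3 from 0.04 to 0.47 as single libraries are left out.

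DBA/2 replicate 2 was the highest DBA/2 library for Ntrk2, Ntrk3, Ngfr and Sort1 and the lowest for Ntf3. Over the whole table it differed from DBA/2 replicates 1 and 3 as much as those differed from each other. Chi-square per degree of freedom was 3.93 and 3.89 for its pairs with them, and 3.90 between them. Over the 6 genes the median log2 fold change was -0.06, beside 0.00 over all tested genes, and the median absolute log2 fold change was 0.17, beside 0.15 over all tested genes.

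Of the 4 other sortilin family genes, Sorcs2, which encodes a further co-receptor of BDNF precursor, fell to 57.3 ± 2.87 CPM in DBA/2, against 66.8 ± 1.24 CPM in C57BL/6 (SD, n = 3 each, edgeR's quasi-likelihood test, Benjamini-Hochberg adjusted p = 0.00785). That call held in 13 of 16 alternatives. It was lost with limma on log2 FPKM with either pseudocount (adjusted p = 0.062) and without the C57BL/6 libraries that held Xist (adjusted p = 0.254), where the log2 fold change was -0.19 beside -0.22 with all libraries. The sorting receptor gene Sorl1 had 354 CPM in DBA/2 and 362 CPM in C57BL/6 and was not called.

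Some genes that cut or package neurotrophin precursors were lower in DBA/2. Of 15 tested, 6 fell, with a median log2 fold change of -0.11, beside 13.7% called lower over all tested genes. The number that fell was 4 with DESeq2 size factors or library size alone, 3 with limma on log2 FPKM, and 3 to 6 over the 16 alternatives. Cpe, carboxypeptidase E, which also acts as a sorting receptor for BDNF precursor, fell to 1791 ± 3.77 CPM in DBA/2, against 2332 ± 56.8 CPM in C57BL/6 (SD, n = 3 each), a log2 fold change of -0.38 (edgeR's quasi-likelihood test, Benjamini-Hochberg adjusted p = 3.43e-07). Its 2 groups were far apart relative to the spread between libraries, and all 16 alternatives kept the call. Of the proprotein convertases, Pcsk6 and Pcsk5 both had a log2 fold change of -0.48 and Pcsk2 one of -0.27, and all were called. The Pcsk6 call held in 16 of 16 alternatives and that of Pcsk5 in 14. With limma on log2(FPKM + 1) and log2(FPKM + 0.1) the adjusted p of Pcsk5 was 0.0652 and 0.0676. Furin, the main convertase of the constitutive pathway, had 43.1 ± 2.12 CPM in DBA/2 and 43.2 ± 1.03 CPM in C57BL/6 (SD, n = 3 each) and was not called. Plat, the tissue plasminogen activator that starts the extracellular cut of BDNF precursor, fell by 0.18 on the log2 scale. Its adjusted p was 0.0447 in edgeR's test, close to the threshold of 0.05. Pcsk5 and Plat are known in non-neuronal cells too, and which cells these changes come from cannot be told apart in bulk tissue.

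Of 27 adaptors and regulators of Trk receptors 2 rose and 2 fell, beside 22.8% called over all tested genes, with a median log2 fold change of 0.05. Another scaling moved this balance, to 5 that rose and 2 that fell with DESeq2 size factors and to 6 that rose and 2 that fell with library size alone. Shc4, an adaptor of receptor tyrosine kinases, fell to 4.24 ± 0.46 CPM in DBA/2, against 7.05 ± 0.56 CPM in C57BL/6 (SD, n = 3 each), and Kidins220, a scaffold that binds Trk receptors and p75NTR, fell by 0.16 on the log2 scale. Those that rose were Ptprf, a receptor tyrosine phosphatase, with a log2 fold change of 0.22, and the ubiquitin ligase gene Nedd4l, with 0.21. Ptprf was called in 14 of 16 alternatives and Nedd4l in 15. Without DBA/2 replicate 2 the Ptprf call was lost (adjusted p = 0.0698 in edgeR's test). Neither call held without the C57BL/6 libraries that held Xist, where the log2 fold change was 0.28 for Ptprf and 0.20 for Nedd4l. Of 26 genes of the Ras, MAP kinase and PI3 kinase relays 3 rose and 3 fell. Over all tested genes 9.09% were called higher and 13.7% lower. The ribosomal S6 kinase genes Rps6ka1 and Rps6ka2, whose products act below ERK, fell by 0.75 and 0.64 on the log2 scale and kept their calls in all 16 alternatives. Mapk7, the gene of ERK5, fell by 0.24 but was called in only 5 of 16 alternatives, with an adjusted p of 0.171 without DBA/2 replicate 2.

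Of 16 tested genes of p75NTR signalling 1 rose and 2 fell, beside 9.09% called higher and 13.7% called lower over all tested genes. Ndn, which encodes necdin, a protein that binds p75NTR, fell to 211 ± 14.1 CPM in DBA/2, against 266 ± 7.11 CPM in C57BL/6 (SD, n = 3 each, edgeR's quasi-likelihood test, Benjamini-Hochberg adjusted p = 1.64e-05). Mapk10, a neuronal Jun kinase gene, had a log2 fold change of -0.24 and Irak1, an interleukin receptor kinase gene, one of 0.17. The Irak1 call held in 6 of 16 alternatives, and its adjusted p was 0.55 without the C57BL/6 libraries that held Xist, with a log2 fold change of 0.115. Rtn4r, the Nogo receptor gene whose product pairs with p75NTR, was listed at 0 counts in all 6 libraries. Whether the transcript was absent or its reads were left out of the counting was not tested.

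Among 21 regulators of Bdnf transcription 5 rose and 3 fell, beside 9.09% called higher and 13.7% called lower over all tested genes. Their median log2 fold change was 0.01. The coactivator genes Crebbp and Ep300 rose, with log2 fold changes of 0.28 and 0.22, and the Ep300 call was lost without C57BL/6 replicate 1 (adjusted p = 0.0525 in edgeR's test). Without that library 2 of the list rose and 2 fell. Arnt2, whose product pairs with NPAS4, fell by 0.23, a call that was lost without the C57BL/6 libraries that held Xist (adjusted p = 0.108 by edgeR), where its log2 fold change was -0.21. Creb1 had 69.9 ± 2.42 CPM in DBA/2 and 69.4 ± 4.12 CPM in C57BL/6, and Npas4, an activity-induced factor at Bdnf promoters, had 24.9 ± 5.94 CPM in DBA/2 and 26.4 ± 2.97 CPM in C57BL/6 (SD, n = 3 each). Neither was called.

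Of 18 genes that BDNF or neuronal activity induces, 9 fell and 1 rose, beside 13.7% called lower and 9.09% called higher over all tested genes. Their median log2 fold change was -0.48. The largest falls were those of Cort, Egr2 and Fos, at -1.68, -1.35 and -1.17 on the log2 scale, beside the smaller Bdnf difference. Cort was scarce, with 13, 10 and 16 counts in the DBA/2 libraries and 39, 28 and 68 in the C57BL/6 libraries. Egr2 had 36, 50 and 45 counts in the DBA/2 libraries and 105, 94 and 155 in the C57BL/6 libraries. Vgf, a secreted neuropeptide precursor induced by BDNF, had 157 ± 16.5 CPM in DBA/2 and 161 ± 13.4 CPM in C57BL/6 (SD, n = 3 each) and was not called. Spry2, an inhibitor of receptor tyrosine kinase signalling, was the 1 that rose, with a log2 fold change of 0.23. Over the 16 alternatives, 6 to 12 genes of this list fell, and the Cort call was lost without the C57BL/6 libraries that held Xist (adjusted p = 0.0797 in edgeR's test), where its log2 fold change was -1.305. Across all 7 lists around the neurotrophins, 12 genes rose and 26 fell of 127 tested, or 29.9%, beside 22.8% over all tested genes. Calls were uneven over the lists, with 6 that fell of 15 precursor genes but 2 that rose and 2 that fell of 27 Trk adaptors and regulators. The lists were chosen with earlier results of these data known, so the pooled share is a description and no test of enrichment.

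**Figure D4:**
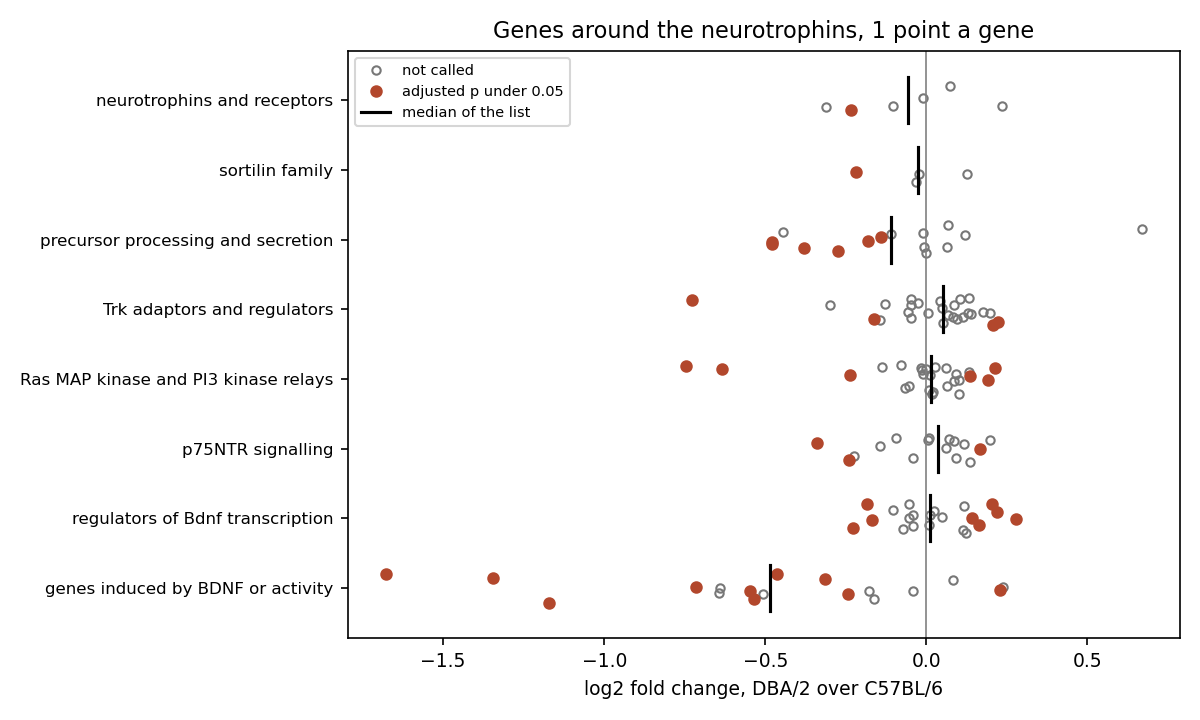
Log2 fold change of DBA/2 over C57BL/6 (horizontal axis) for every tested gene of the 6 neurotrophin and receptor genes and of 7 lists around them. Filled points have an adjusted p under 0.05, open points do not, the vertical place within a list carries no meaning, and black bars are medians. The list induced by BDNF or activity has a median of -0.48, and the medians of the other lists lie between -0.11 and 0.05.

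The genes whose pattern over the 6 libraries was most like that of Bdnf were Tmem2, Zfp446 and Masp1. Likeness was the root mean square difference in log2 CPM after centring each gene on its own mean. It was taken over 12332 genes of at least 5 CPM on average, and predicted genes, clone names and pseudogenes were then left out. The difference was 0.0354 for Tmem2, 0.0358 for Zfp446 and 0.0372 for Masp1. None of these 3 was called, although their log2 fold changes of -0.20, -0.25 and -0.30 were close to that of Bdnf.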

How the data were processed

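RNA from the hippocampus of 2 mouse strains was sequenced in 3 libraries a strain, and strain was taken from the labels. Per the labels' protocols, the kit was NEBNext Ultra RNA. Trimmomatic 0.30, HISAT2 2.0.1, Cufflinks 2.2.1 and build GRCm38 are named in the submitters' processing notes, and which program counted reads, and whether by strand, is not given in the sources used here. Raw gene counts, FPKM and an exonic length per gene were deposited, and FPKM recomputed from count, length and library total differed by at most 0.005. The table has 12 further columns of per-sample values, which were not used. Chi-square tests between libraries of a strain gave 3.16 to 3.93 per degree of freedom, above sampling noise.

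Counts were tested with edgeR 4.0.16 in R 4.3.3 (robust quasi-likelihood F test, low counts filtered with filterByExpr, TMM scaling), with Benjamini-Hochberg adjustment over 17517 genes. Intervals of a fold change come from the same fit, with the SE as the size of the fold change over the square root of F. Tested on simulated data for DBA/2 over C57BL/6, with 17531 genes tested, the script recovered 72% of 100 genes changed 1.5-fold and 91% of 100 changed 2-fold, and 10.4% of its 182 calls were false. Ratios within a library were tested by exact permutation. Alternatives used limma 3.58.1 and DESeq2 1.42.0. Gene positions and transcripts are those of GENCODE M21 (GRCm38, counted from 1), in which 99.5% of gene IDs were found. Promoter windows are from RefSeq and matched 4 of the 6 symbols. The longest transcript of each of the 6 genes was aligned to all transcripts with megablast (BLAST 2.17.0). At 95% identity over 200 bases only antisense transcripts matched, Gm45346 at Bdnf with 7 counts in all and Gm12523 at Sort1 with 15, and without strand their reads cannot be told apart from those of Bdnf and Sort1. Some genes of the pathway are not reported here. The 6 genes and all lists were chosen with earlier results of these data known. Beside the 6 genes, the text names up to 3 called genes of each list with the largest change, or the most abundant, the 3 genes most like Bdnf in pattern, and some list members chosen after their values were seen.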

Additional observations from a re-analysis of the deposited data

How the results depend on the processing

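Over 16 alternatives, or 15 for Ngfr, which a filter of at least 5 CPM removed, Bdnf, Ntf3, Ntrk2, Ngfr and Sort1 kept their direction. The number of the 6 genes called was 1 with all libraries, 0 to 2 when 1 library was left out, and 0 with the DESeq2 Wald test, with limma on log2(FPKM + 1) or log2(FPKM + 0.1), and without the 2 C57BL/6 libraries that held Xist. In those 4 settings the log2 fold change of Bdnf was -0.23, -0.18, -0.20 and -0.30, with adjusted p of 0.102, 0.135, 0.135 and 0.067. The last setting leaves C57BL/6 with 1 library, assumed to vary like the others, and gave 2012 called genes in place of 4000. Leaving out 1 library gave 3131 to 3717 called genes and log2 fold changes of -0.31 to -0.19 for Bdnf, 0.0363 to 0.47 for Ntf3, -0.15 to -0.0638 for Ntrk2, -0.0307 to 0.0280 for Ntrk3, -0.74 to -0.07 for Ngfr and 0.05 to 0.10 for Sort1. Ntrk3, close to 0, turned to 0.0127 with library size alone, 0.0123 and 0.0134 with FPKM + 1 and + 0.1, and 0.0253 without the Xist libraries. The difference in log2 ratio of Ntf3 to Ntrk3 was -0.0036 to 0.50 when 1 library was left out. Library size alone split the called genes into 1945 higher and 2202 lower, against 1593 and 2407 with TMM. Libraries that share a replicate number did not deviate together (correlations of 0.132, -0.0787 and 0.00284), so the numbers do not pair them. With the replicate number as a block, 3827 genes were called and Bdnf had a log2 fold change of -0.23 and an adjusted p of 0.047. The cause of these changes was not tested. Among the 6 genes the lowest counts were those of Ngfr, 29 to 80 a library.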
